A study of Mus musculus with 24 samples.

Results

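A set of 100 mouse genes was described that stood higher in XY than in XX supporting cells of the fetal gonad at E11.5 (embryonic day counted from mating) and higher in XX than in XY cells at E15.5. The set was taken from 32040 genes with the deposited TPM values (a level per gene length, scaled to the library) averaged over 3 libraries a group. The members were selected on 2 log2 ratios of group means on TPM + 1, the XY over XX ratio at E11.5 and the XX over XY ratio at E15.5, and each gene was ranked by the smaller of them. Symbols of unnamed gene models and pseudogene-style symbols were left out, which left 23928 genes, and the first 100 were kept. The E11.5 and E15.5 values therefore chose the genes and are given as a description without a test. Tests were made only between E12.5 and E13.5 groups, which had no part in the choice, although all 24 libraries entered the fit and shared its filter and its estimate of the spread.

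The 24 libraries came from cells sorted by fluorescence from fetal gonads at 4 stages, E11.5, E12.5 and E13.5 and then E15.5, with 3 libraries for each sex and stage. XX cells were pre-granulosa cells of the Tg(Enh8-mCherry) line, and XY cells were Sertoli cells of the SOX9-IRES-GFP line, so sex, mouse line and fluorophore changed together and cannot be told apart. About 40000 cells were used for a library, and polyadenylated RNA was amplified with a low-input kit. For XX E13.5 replicate 1 the labels disagree, with E13.5 in its title and E12.5 in its stage field, and it was kept at E13.5. The labels do not say whether replicates came from separate embryos or pools, so p-values measure the spread between these libraries, which may be technical.

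Sertoli and granulosa cells arise from a common precursor of the gonad, the supporting cell. In XY gonads, SRY and then SOX9 direct this precursor to the Sertoli fate, which shapes the testis cords. In XX gonads, WNT4, RSPO1 and FOXL2 act in pre-granulosa cells, which later enclose the oocytes, and LGR5, a receptor for R-spondins, marks the pre-granulosa cells that arise near the ovarian surface.

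Library totals ranged from 11275251 to 37256881 counts, with the greatest depth in XY E11.5, at 35392435 to 37256881. All 14 of 14 Sertoli markers were higher in XY and all 14 of 14 pre-granulosa markers were higher in XX at both tested stages. The Sertoli markers summed to 1188 to 2150 TPM in XY E11.5 and to 10130 to 10960 TPM in XY E12.5 libraries. XX libraries also carried RNA of blood cells at all stages: the summed TPM of 9 immune markers lay between 216 and 560.5 in XX E11.5 libraries and between 0.54 and 3.19 in XY E11.5 libraries, and that of 7 erythroid markers lay between 7528 and 68530 against 24 and 65.17. All 9 immune markers were higher in XX at both tested stages, and 4 of 7 erythroid markers were higher in XX with 1 higher in XY at both stages. The calls of the 12 germ cell markers were split at E12.5, with 2 higher in each sex, and 7 were higher in XX at E13.5. Their summed TPM at E12.5 was 105.7 to 132.2 in XX and 21.08 to 24.36 in XY libraries. Of 8 endothelial markers, 1 was higher in each sex at E12.5, and 3 in XX and 2 in XY at E13.5. Of 6 mesonephric markers, 4 were higher in XX and 1 in XY at E12.5, and 3 and 2 at E13.5. Their summed TPM was nevertheless higher in XY at every stage. It was 54.92 to 92.24 in XX E11.5 and 373.1 to 414.8 in XY E11.5 libraries. At E12.5 it was 47.36 to 74.35 in XX and 391.7 to 453.9 in XY libraries. At E13.5 it was 46.38 to 48.94 and 303.7 to 330.7, and at E15.5 39.0 to 44.58 and 317.1 to 341.9. The part of these cell types in the members' values was not tested. In bulk samples of this kind, fewer cells of a type and less RNA per cell cannot be told apart.

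Over the whole span the levels of these genes differed more in the XY cells than in the XX cells. Across the 100 members, the median of the group mean was 18 TPM in XY and 7.08 TPM in XX at E11.5. At E15.5 it was 1.73 TPM in XY and 10.5 TPM in XX. The mean of XY cells was lower at E15.5 than at E11.5 for 99 members, by at least 1 on the log2(TPM + 1) scale for 92. The mean of XX cells was higher at E15.5 for 64 members and lower for 36, by at least 1 log2 for 39 and 15. The absolute change was larger in XY for 77 members. The rule asked for XY above XX at E11.5 and XX above XY at E15.5. These counts come from the same values, so they describe the chosen genes and are no test.

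**Figure D1:**
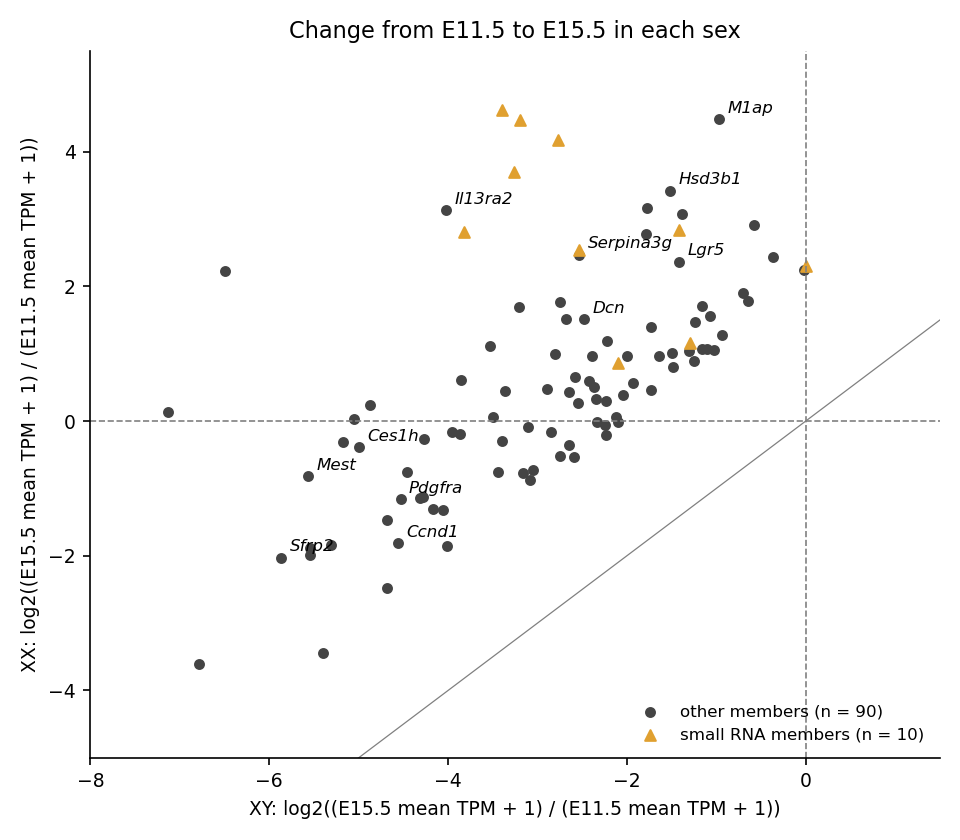
Each point is a member, with the log2 ratio of mean TPM + 1 at E15.5 over E11.5 in XY cells on the horizontal axis and in XX cells on the vertical axis, and triangles mark the 10 small RNA genes. Points left of 0 and above 0 were lower in XY and higher in XX at E15.5, which holds for 63 members, and 36 members were lower at E15.5 in both.

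The 3 libraries of a group did not always separate. XY and XX libraries did not overlap for 72 members at E11.5, where 16.8% of 24356 genes had every XY library above every XX library. They did not overlap for 89 members at E15.5, where 25.8% of genes had every XX library above every XY library. The rule used these values, so nothing is read from the counts. The score ran from 3.39 to 0.92. The last members were Arhgap36 (0.93), Chst4 (0.92) and Dlc1 (0.92), and the first genes outside were Rasgrp1 (0.89), Hapln1 (0.89) and Mir99ahg (0.88).

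Of the members, 84 are annotated as protein coding, 6 as miRNA, 4 as snoRNA and 6 as other types. The 10 small RNA genes never exceeded 13 counts in any library, and they included 6 of the first 7 ranks. Mir130c, ranked first, was listed at 14.44, 14.08 and 0 TPM in XY E11.5, at 0 in the 3 XX E11.5 libraries, at 0, 0 and 70.89 TPM in XX E15.5 and at 0 in XY E15.5. Mir503 was above 0 in 1 XY E11.5 library (25.86 TPM) and 1 XX E15.5 library (36.09 TPM), and in no other of the 24. Mir344g was above 0 in 1 XY E11.5 and 2 XX E15.5 libraries, Mir6935 in 1 of each, and Snord59a and Snord53 in 2 XY E11.5 libraries and 1 XX E15.5 library, with scattered values at E12.5. A short gene turns 1 count into many TPM, so these ranks rest on a few counts in polyadenylated RNA libraries. None of the 10 passed the filter on low counts, all other 90 members passed it, and the tests below concern those 90.

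Among the first members by rank with larger counts were Il13ra2, a decoy receptor for interleukin 13, M1ap, a meiosis gene, Slc16a4, a monocarboxylate transporter, Acsm3, an acyl-CoA synthetase, and Hsd3b1, a steroid dehydrogenase. Rnase1, a secreted ribonuclease, had the largest XY over XX ratio at E11.5 of all members, 6.9 on the log2 scale. The 250 bases before the RefSeq start (build GRCm38.p6) are shown for 4 of these genes that hold a match to any of 6 short motifs there, since they are among the highest ranked members. They differed in the stage at which their bias turned, as their values below show. Capitals mark the GATA motif AGATAA, which reads TTATCT on the other strand, matches to the SOX motif ACAATG, which reads CATTGT on the other strand, and the FOX motif GTAAACA. The gene lies on the minus strand for Il13ra2 (chrX:147429193-147429442), Hsd3b1 (chr3:98859795-98860044) and Rnase1 (chr14:51146768-51147017), and on the plus strand for Acsm3 (chr7:119760673-119760922).
Il13ra2: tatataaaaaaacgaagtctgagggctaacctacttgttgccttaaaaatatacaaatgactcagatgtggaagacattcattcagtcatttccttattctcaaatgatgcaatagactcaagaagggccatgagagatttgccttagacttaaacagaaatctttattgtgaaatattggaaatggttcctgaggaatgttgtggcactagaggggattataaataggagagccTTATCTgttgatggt
Hsd3b1: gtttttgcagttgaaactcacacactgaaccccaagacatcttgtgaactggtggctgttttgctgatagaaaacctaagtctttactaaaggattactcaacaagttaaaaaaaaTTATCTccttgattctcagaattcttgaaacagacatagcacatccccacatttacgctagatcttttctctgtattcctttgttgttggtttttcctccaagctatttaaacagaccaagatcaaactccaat
Rnase1: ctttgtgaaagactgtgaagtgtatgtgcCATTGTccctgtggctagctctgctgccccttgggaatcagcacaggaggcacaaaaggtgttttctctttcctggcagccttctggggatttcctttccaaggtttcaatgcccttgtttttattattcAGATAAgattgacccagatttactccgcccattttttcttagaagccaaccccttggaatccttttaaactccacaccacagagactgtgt
Acsm3: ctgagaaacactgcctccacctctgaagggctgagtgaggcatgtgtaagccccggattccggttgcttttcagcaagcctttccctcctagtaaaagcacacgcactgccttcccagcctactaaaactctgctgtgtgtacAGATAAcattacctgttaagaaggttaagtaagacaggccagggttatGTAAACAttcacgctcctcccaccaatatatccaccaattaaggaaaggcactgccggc
The motif letters began 15 bases before the start in Il13ra2, 134 in Hsd3b1, 221 (SOX) and 91 (GATA) in Rnase1, and 107 (GATA) and 59 (FOX) in Acsm3. Promoters of 60 members were found, and each motif was searched on both strands over 300 bases, from 250 before to 50 after the start. AGATAA stood in 9 of 60 members (15.0%) and in 11.4% of 27025 promoters, and ACAATG in 7 (11.7%) and 12.8%. GTAAACA stood in 3 (5.0%) and 3.55%, ATCAAAG (TCF/LEF) in 3 (5.0%) and 3.72%, CACGTG (E-box) in 2 (3.33%) and 7.24%, and CAAGGTCA (NR5A1) in 0 and 1.53%. Matches of different motifs can share bases (the end of GTAAACA and the start of ACAATG). A match is a description and no binding site, and no match says only that these letters are not in this window.

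The mean TPM was higher in XX for 71 of the 100 members at E12.5 and for 72 at E13.5. These counts include small RNA members with few counts, and a share over all genes was not computed for them. At E12.5, 48 of the 90 members tested were called higher in XX (adjusted p under 0.05, edgeR quasi-likelihood test with Benjamini-Hochberg adjustment over 16190 genes), where 30.5% of all genes tested were. Another 22 were called higher in XY, against 31.5% of all genes, and 20 were not called. The median XX minus XY difference of the members was 0.87 on the log2 scale, beside -0.01 over all genes. At E13.5, 58 were called higher in XX (32.8% of all genes), 10 higher in XY (33.3%) and 22 were not called, with a median of 1.49 beside 0.01. A total of 45 members were higher in XX at both stages, as were 22.3% of all genes, and 8 were higher in XY at both, against 23.4%. The 10 members called higher in XY at E13.5 became 6 without XX E13.5 replicate 1 or 2 or XY E13.5 replicate 1 or 2, and the 58 became 57 without XX E13.5 replicate 1.

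**Figure D2:**
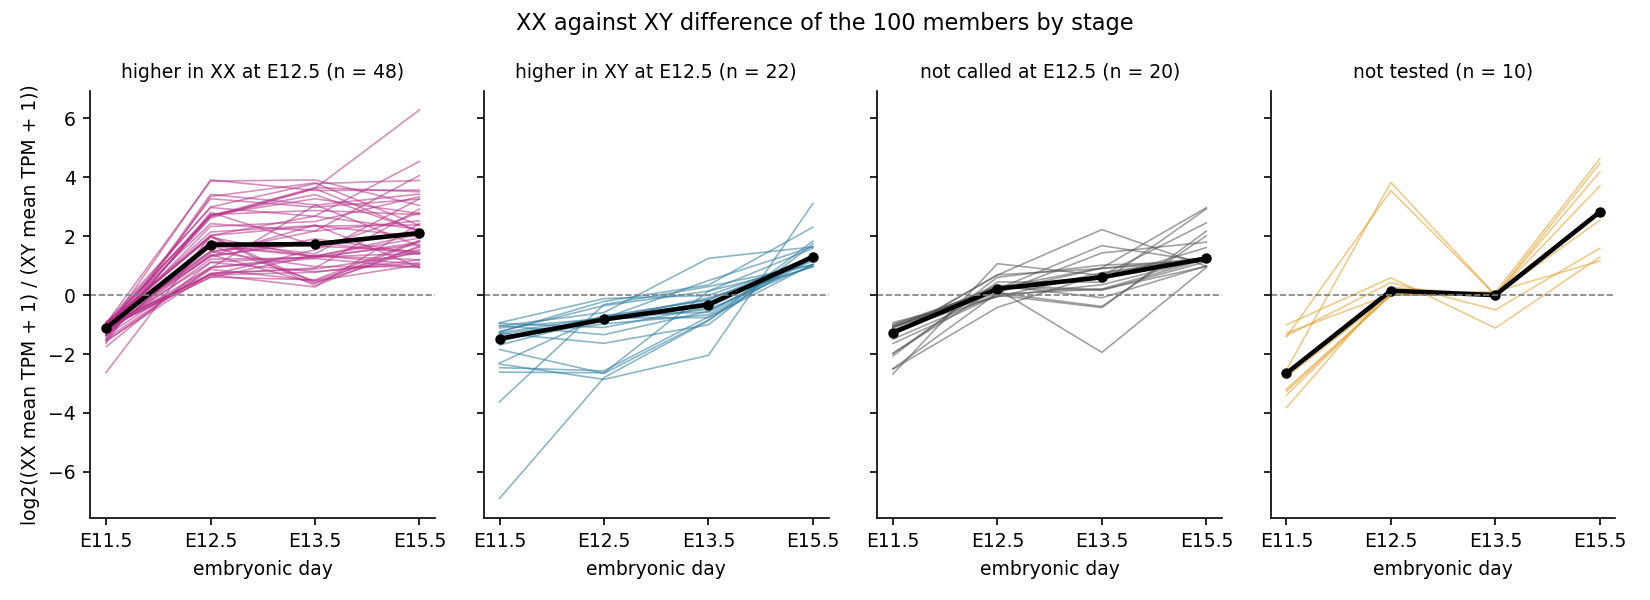
Each thin line is a member and gives the log2 ratio of XX over XY mean TPM + 1 at the 4 stages, split by its call at E12.5, and the black line with dots is the median of the panel. The 48 members higher in XX at E12.5 lay above 0 at that stage, and of the 22 members higher in XY at E12.5, the median was still below 0 at E13.5 and above it at E15.5.

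Between E12.5 and E13.5 the members fell in XY cells more often than they rose there. In XY, 27 members fell, where 8.62% of all genes did, and 3 rose (8.02%), namely Slc16a4, Oit3 and Cd1d2. In XX, 17 rose (14.2% of all genes) and 12 fell (17.4%), and the 12 became 7 without XX E12.5 replicate 3. The XX minus XY difference moved towards XX in 26 members, against 11.3% of all genes, and towards XY in 5 (13.8%), which were Hoxd4, Arhgap20, Epha7, Sntb2 and Chst4. Rnase1, Pde9a and Rab11fip4 rose in XX and fell in XY with a called change of the difference. Such opposite steps in either direction were called for 3.51% of all genes, a share close to 3 of 90. With only the 12 E12.5 and E13.5 libraries in the fit, 30 members rose in XX in place of 17, and 6 in XY in place of 3.

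**Figure D3:**
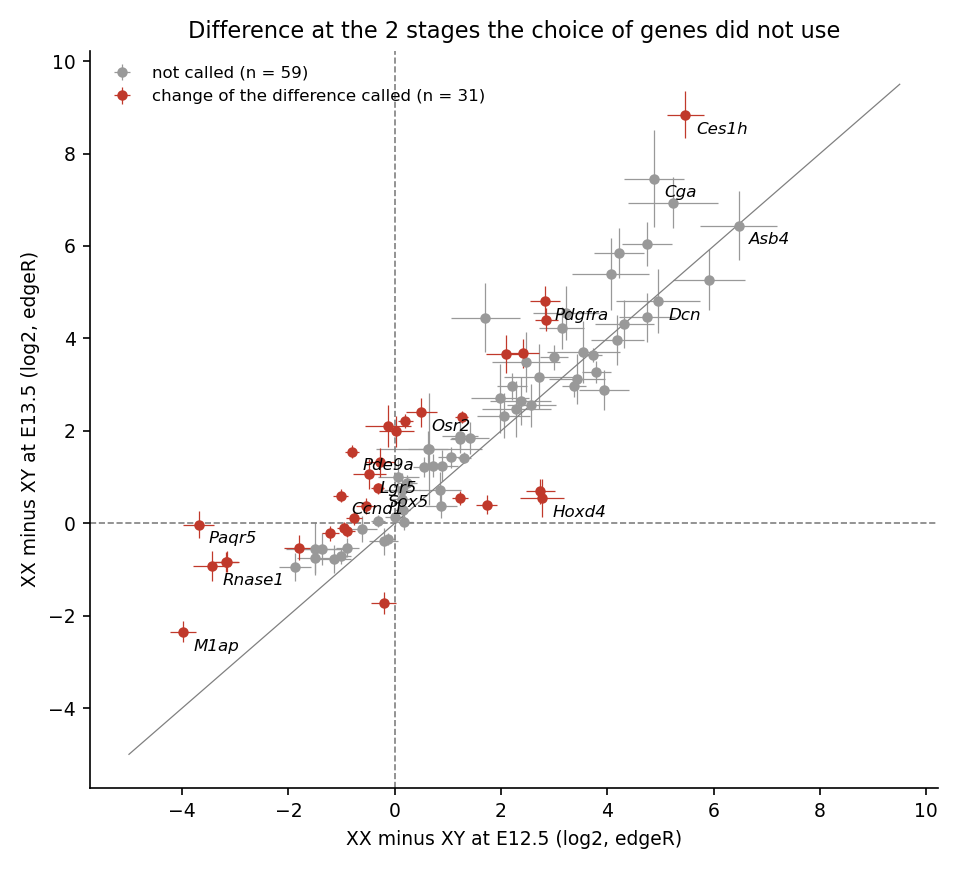
Each point is 1 of the 90 members tested, with the XX minus XY log2 difference at E12.5 on the horizontal axis and at E13.5 on the vertical axis, bars of 1 standard error and the line of equality. Red points, 31 in all, had a called change of the difference between the stages, 26 above the line and 5 below it. The position of Cga on the vertical axis depends on the fit, since its XY E13.5 counts were 0.

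Receptors, adhesion molecules and other surface proteins made up 16 of the tested members, of which 7 were higher in XX and 6 in XY at E12.5, and 9 and 2 at E13.5. In XY cells 7 of the 16 fell from E12.5 to E13.5 and none rose, and in XX cells 2 rose and 1 fell. The XX counts lie near or below the shares of all genes given above (14.2% rising and 17.4% falling), while the XY count stands beside 8.62% falling. The same shares of all genes, and 30.5% and 31.5% at E12.5 and 32.8% and 33.3% at E13.5 for a higher level in XX and in XY, apply to each role group that follows. This grouping by role was drawn up with the values known.

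Pdgfra (chr5:75152292-75198215), the receptor for platelet-derived growth factor and a marker of gonadal stroma, was at 76.88, 64.56 and 75.96 TPM in XY E11.5 and at 28.3, 16.46 and 46.79 TPM in XX E11.5. It was at 3.07, 3.89 and 4.25 TPM in XY E12.5, where XX libraries held 36.54, 29.5 and 17.85 TPM, and at 0.6, 0.63 and 0.94 TPM in XY E13.5, where XX held 18.39, 18.53 and 23.34 TPM. The groups did not overlap at any of these stages, with XY high at E11.5 and XX high from E12.5. The difference was 2.82 log2 (SE 0.28, edgeR adjusted p = 3.5e-08) at E12.5 and 4.81 (SE 0.32, adjusted p = 7.91e-11) at E13.5, with a fall of XY cells by 2.27 log2 (SE 0.32, adjusted p = 4.98e-05) in between. The widening by 1.98 log2 had an adjusted p of 0.00138, and of 0.0553 and 0.0985 with limma-trend on log2(TPM + 1), with and without a TPM filter.

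Lgr5 (chr10:115450311-115587780) exchanged its bias later. XY E11.5 libraries held 132.26, 133.51 and 88.21 TPM and XX E11.5 libraries 13.73, 36.86 and 9.11 TPM, with XX replicate 2 the highest of its group. At E12.5, XY libraries were at 153.61, 162.89 and 150.43 TPM and XX libraries at 131.04, 137.99 and 80.08 TPM, so the receptor was abundant in both, and the difference of -0.48 log2 (SE 0.31, edgeR adjusted p = 0.191) was not called, although it was with only the 12 E12.5 and E13.5 libraries in the fit (adjusted p = 0.0359). At E13.5, XY was at 75.3, 65.6 and 64.42 TPM, below XX at 112.4, 114.95 and 113.31 TPM, a difference of 1.07 log2 (SE 0.32, adjusted p = 0.00577). XY cells fell by 1.11 log2 (adjusted p = 0.0204), while the XX step of 0.44 log2 was not called (adjusted p = 0.307). The change of the difference was 1.55 log2 (SE 0.45, adjusted p = 0.0146). With limma-trend on log2(TPM + 0.1), or without a TPM filter, neither the E13.5 difference nor its change was called, with adjusted p up to 0.0834 and 0.0932.

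Paqr5, a membrane progestin receptor, Lrp4, a receptor of the LDL receptor family, and Kcnk2, a potassium channel, kept an XY excess through E12.5 and lost most of it within a day. Paqr5 was at 19.55, 20.74 and 20.62 TPM in XY E12.5 and 2.64, 2.74 and 1.89 TPM in XX E12.5, and at 2.32, 2.85 and 2.47 TPM in XY E13.5 against 2.83, 3.16 and 2.72 TPM in XX E13.5. Its groups were apart at E12.5, by -3.69 log2 (SE 0.29, edgeR adjusted p = 5.67e-10), and overlapped at E13.5, where the difference was -0.03 log2 (adjusted p = 0.94). XY cells fell by 3.14 log2 (SE 0.28, adjusted p = 2.18e-07), and the difference moved by 3.66 log2 (SE 0.4, adjusted p = 3.9e-06), the largest move among the members tested. Lrp4 went from -3.16 log2 (SE 0.23) to -0.83 (SE 0.22), and Kcnk2 from -3.17 (SE 0.23) to -0.84 (SE 0.22), all 4 called. The change of the difference was 2.33 log2 for Lrp4 (adjusted p = 3.41e-05) and 2.34 for Kcnk2 (adjusted p = 2.5e-05).

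The remaining surface proteins of the lists behaved in 3 ways. Cdh11, a mesenchymal cadherin, was at 35.38, 34.85 and 57.97 TPM in XY E11.5 and at 0.25, 0.34 and 0.5 TPM in XY E12.5, where XX libraries held 11.87, 9.43 and 7.77 TPM. XX E11.5 libraries held 14.36, 8.61 and 42.61 TPM, so the groups overlapped at E11.5. The difference was 4.74 log2 (SE 0.53) at E12.5 and 4.46 (SE 0.53) at E13.5. Epha7, an ephrin receptor, was higher in XX by 1.23 log2 (SE 0.15) at E12.5 and by 0.54 (SE 0.15) at E13.5, a difference that shrank by 0.7 log2 (adjusted p = 0.0207, edgeR). Without XX E12.5 replicate 3 this change was -0.43 log2 and was not called (adjusted p = 0.0825), and the E13.5 difference was not called with limma-trend without a TPM filter (adjusted p = 0.0723). Sema6a, a guidance semaphorin, differed by 0.18 log2 (adjusted p = 0.352) and 0.02 log2 (adjusted p = 0.913) and was not called at either stage, but was called at E12.5 with only the 12 E12.5 and E13.5 libraries in the fit (adjusted p = 0.033).

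Secreted and matrix proteins had the largest median difference of these role groups, 2.57 log2 at E12.5 and 3.68 at E13.5. Of 13 such members, 9 were higher in XX and 4 in XY at E12.5, and 9 and 3 at E13.5, with 5 falling in XY cells and none rising. Dcn, the matrix proteoglycan decorin, was at 40.45, 53.9 and 83.33 TPM in XY E11.5 and at 0.28, 0.36 and 0.46 TPM in XY E12.5. XX libraries held 16.49, 16.65 and 5.58 TPM at E12.5, above all XY libraries, a difference of 4.96 log2 (SE 0.79, edgeR adjusted p = 1.92e-05), and 4.81 log2 at E13.5. The XX E11.5 libraries held 3.85, 8.07 and 43.32 TPM, so that replicate 3 overlapped the XY E11.5 libraries. Ptn, the growth factor pleiotrophin, was at 156.3, 192.85 and 424.23 TPM in XY E11.5, and at 1.53, 1.55 and 1.79 TPM in XY E12.5, with differences of 4.32 log2 at E12.5 (SE 0.55) and 4.31 at E13.5 (SE 0.52). Its XX E11.5 libraries held 75.83, 58.17 and 259.66 TPM and overlapped the XY E11.5 libraries. Like other genes added for the size of their values (Mest, Lhfpl2, Hs3st1, Sparcl1, Traf3ip2, Il33, Rbms3, Osr2, Sox5, Ccnd1, Pde9a and Rab11fip4), Ptn was chosen for description after its values were seen.

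The secreted WNT inhibitors Sfrp1 and Sfrp2 were both high in XY E11.5 and low in XY E12.5. Sfrp2 was at 50.7, 96.67 and 118.57 TPM in XY E11.5 and at 0.38, 0.56 and 1.01 TPM in XY E12.5, where XX libraries held 11.67, 13.31 and 4.56 TPM. The XX excess was 4.06 log2 (SE 0.72) at E12.5 and 5.4 (SE 0.78) at E13.5, and that of Sfrp1 was 2.57 (SE 0.46) and 2.55 (SE 0.46), all called. In XX E11.5, Sfrp2 was at 14.95, 17.39 and 92.78 TPM and Sfrp1 at 34.49, 33.61 and 102.57 TPM. Replicate 3 was the highest for both, and for both genes the groups overlapped at E11.5.

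Lama2, the alpha chain of a muscle-type laminin, was low, with group means up to 5.45 TPM, and at 0.05, 0.06 and 0 TPM in XY E12.5 against 1.07, 1.37 and 3.21 TPM in XX, a difference of 5.91 log2 (SE 0.68) at E12.5 and 5.27 (SE 0.66) at E13.5. Its groups overlapped at E11.5, at 3.17, 4.83 and 8.35 TPM in XY and 1.06, 1.62 and 3.21 TPM in XX. Cga, the common alpha subunit of the gonadotropins, was at 52.22, 44.74 and 40.02 TPM in XY E11.5, above XX at 23.3, 5.24 and 18.67 TPM, and at 0.33, 0.23 and 0.12 TPM in XY E12.5, below XX at 5.58, 7.89 and 9.24 TPM. At E13.5 the 3 XY libraries held 0 counts, and XX cells, with 51 counts in all, were at least 23.0-fold higher (against a floor of 3 counts over the group). The XX cells themselves fell by 1.51 log2 (SE 0.42, edgeR adjusted p = 0.0101) from E12.5 to E13.5. Sparcl1, a secreted glycoprotein of the SPARC family, was higher in XX by 1.26 log2 (SE 0.12) and then 2.31 (SE 0.13).

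Rnase1 kept an XY excess at both tested stages. XY E11.5 libraries held 235.19, 260.25 and 213.14 TPM and XX E11.5 libraries 0.19, 2.44 and 0.33 TPM. At E12.5 XY was at 22.24, 24.43 and 22.59 TPM and XX at 1.68, 2.5 and 3.19 TPM, and at E13.5 at 10.88, 11.03 and 10.35 TPM against 4.57, 5.34 and 6.39 TPM. XY libraries were above all XX libraries at both stages, by -3.44 log2 (SE 0.35, edgeR adjusted p = 4.06e-08) and -0.92 log2 (SE 0.33, adjusted p = 0.0185) for XX minus XY. The gap closed by 2.51 log2 (SE 0.48, adjusted p = 0.000761), with XX up by 1.38 log2 and XY down by 1.13 log2, both called. The E13.5 call was lost without XX E13.5 replicate 1 or 2 or XY E13.5 replicate 1 or 2, with adjusted p up to 0.0747, and with limma-trend on log2(TPM + 0.1), with 0.0746. Nell1, a secreted thrombospondin-like protein, was at 44.6, 55.08 and 63.06 TPM in XY E12.5 and 15.87, 13.1 and 21.37 TPM in XX, and remained higher in XY at E13.5 by -0.94 log2 (SE 0.3).

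**Figure D4:**
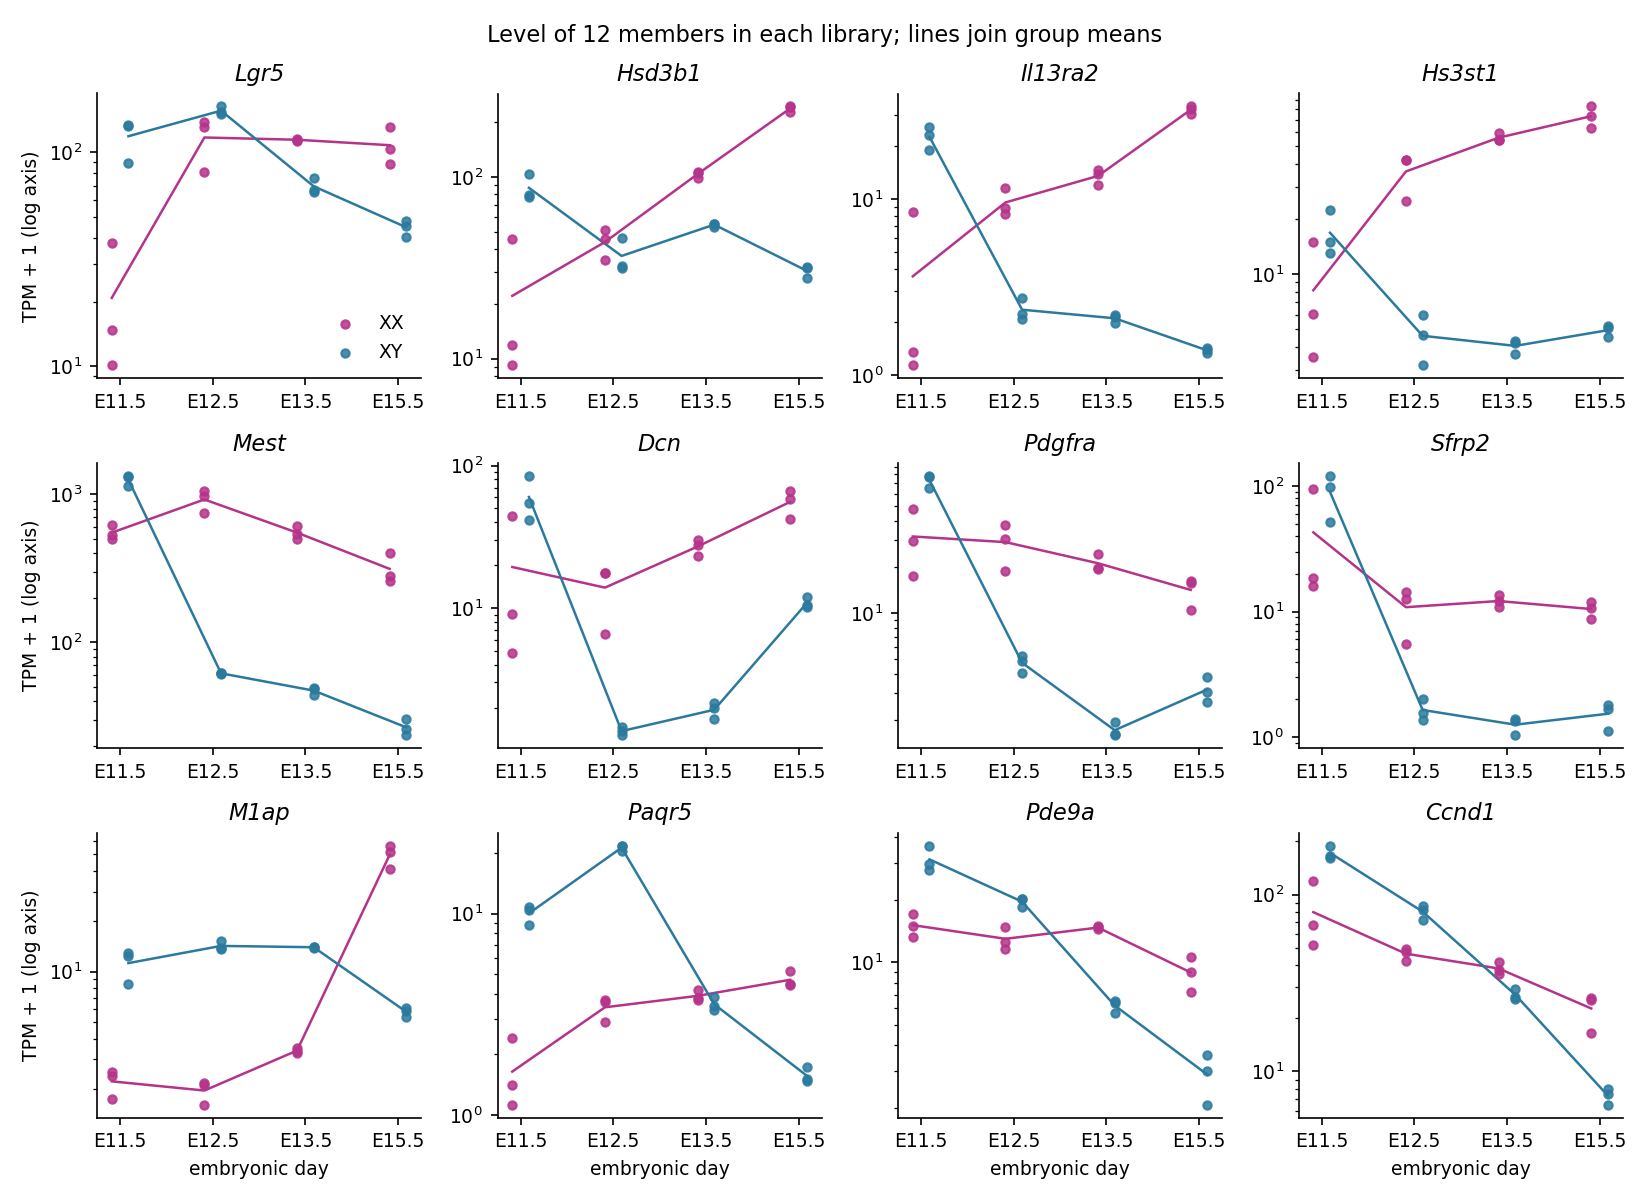
Points are the TPM + 1 of single libraries on a log axis for 12 members, XX and XY in 2 colours, and lines join the group means over the 4 stages. In Mest, Dcn, Pdgfra and Sfrp2 the XY libraries dropped between E11.5 and E12.5, while in Lgr5, Paqr5, Pde9a and Ccnd1 the lines crossed or met between E12.5 and E13.5.

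Metabolic enzymes, lipid-binding proteins and transporters numbered 13, with 7 higher in XX and 2 in XY at E12.5, and 8 and 1 at E13.5. Acsm3 was at 57.8, 43.51 and 30.11 TPM in XY E11.5 and 10.75, 16.99 and 3.26 TPM in XX E11.5, and at E12.5 at 13.81, 20.59 and 22.28 TPM in XY and 28.17, 33.38 and 16.67 TPM in XX. Its groups were apart at E11.5, overlapped at E12.5 and E13.5, and it was not called at either tested stage, at 0.13 log2 (SE 0.34, adjusted p = 0.761) and 0.73 log2 (SE 0.35, adjusted p = 0.0758). At E13.5 Acsm3 was called higher in XX with DESeq2 (adjusted p = 0.046), with at least 10 counts in every tested library (0.0475) and with only the 12 E12.5 and E13.5 libraries in the fit (0.0251). Slc16a4 was not called at E12.5, at -0.13 log2 (adjusted p = 0.422). It was called higher in XY at E13.5, at -0.34 log2 (SE 0.14, adjusted p = 0.0337), and called up by 0.4 log2 in XY cells (adjusted p = 0.0473). Each Slc16a4 call was lost on leaving out any of 9 of the 12 libraries, with adjusted p up to 0.178 and 0.107. The E13.5 call was also lost with DESeq2 or its size factors and with at least 10 counts, and the step with a filter of 1 count or a replicate block.

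Hsd3b1 was the only steroidogenic marker among the members. It was at 78.91, 102.74 and 76.26 TPM in XY E11.5 and 10.87, 44.41 and 8.18 TPM in XX E11.5, where replicate 2 was the highest, and the groups overlapped at E12.5, at 45.29, 31.52 and 30.35 TPM in XY and 49.95, 44.29 and 34.09 TPM in XX. XX cells then rose by 1.5 log2 (SE 0.38, edgeR adjusted p = 0.00545) to 105.74, 104.54 and 97.19 TPM at E13.5 and stood at 242.68, 241.45 and 225.64 TPM at E15.5. The E13.5 difference was 1.0 log2 (SE 0.38, adjusted p = 0.0257) and lost its call without XX E13.5 replicate 1, XY E13.5 replicate 1 or XY E13.5 replicate 3 (adjusted p up to 0.0569), with a filter of 1 count (0.0669) and with limma-trend without a TPM filter (0.0515). Of the 10 steroidogenic and adrenal-like markers, 5 were higher in XX at E12.5 and 9 at E13.5, with none higher in XY. Hsd3b1 has a near-identical neighbour, Hsd3b6, and reads may be divided between them.

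Ces1h, a carboxylesterase of a cluster of close copies, was at 39.27, 27.47 and 25.7 TPM in XY E11.5 and 14.86, 9.58 and 9.94 TPM in XX. At E12.5 it was at 0.07, 0.36 and 0.14 TPM in XY and 10.66, 8.7 and 12.08 TPM in XX, a difference of 5.47 log2 (SE 0.34, edgeR adjusted p = 5.84e-11). At E13.5 XY libraries held 1 count in all against 464 in XX, a ratio of 642 (95% counting interval 115 to 25300, adjusted p = 1.41e-11). The fall in XY cells by 3.73 log2 had an adjusted p of 0.00659, which became 0.0787 without XY E12.5 replicate 2. With limma-trend on log2(TPM + 1) the step was -0.23 and was not called (adjusted p = 0.418, and 0.573 without a TPM filter). Car3, a carbonic anhydrase, was higher in XX by 4.75 log2 (SE 0.47) at E12.5 and 6.05 (SE 0.48) at E13.5. Its XY levels were near 0, at 0.64, 0.14 and 0 TPM at E12.5 and 0.1, 0.24 and 0.15 TPM at E13.5. XX libraries held 8.32, 5.64 and 7.86 TPM and then 11.17, 11.01 and 11.91 TPM. Hs3st1, a heparan sulfate sulfotransferase, was higher in XX by 3.14 log2 (SE 0.43) and 4.22 (SE 0.45), and in XX it was at 5.01, 13.91 and 2.51 TPM at E11.5 and 72.36, 81.55 and 62.17 TPM at E15.5. Its XY E11.5 libraries held 21.5, 13.92 and 12.02 TPM, so the groups overlapped at E11.5.

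Regulators of transcription and the cell cycle numbered 9, of which 4 were higher in XX and 2 in XY at E12.5, and 8 in XX and none in XY at E13.5. None rose in XX cells (1 fell) and 4 fell in XY cells. The XX group at E12.5 comprised Hoxd4, Meis2, Osr1 and Gli3. Osr2, an odd-skipped zinc finger factor, differed by 0.5 log2 (adjusted p = 0.145, edgeR) at E12.5 and by 2.4 log2 (SE 0.32, adjusted p = 1.15e-06) at E13.5, a change of 1.9 log2 (adjusted p = 0.0026). Hoxd4, whose annotation overlaps that of Hoxd3, moved the other way. It was at 3.52, 7.15 and 7.39 TPM in XX E12.5 and 0.66, 0.85 and 0.82 TPM in XY E12.5, a difference of 2.77 log2 (SE 0.42), and at E13.5 the groups overlapped at 0.55 log2 (SE 0.41, adjusted p = 0.25), after a fall of XX cells by 1.48 log2 (adjusted p = 0.00631).

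In all, 3 of the 90 members were called higher in XY at E12.5 and higher in XX at E13.5. This sequence was found in 1.15% of all genes tested. The 3 members were Sox5, a SoxD transcription factor, Ccnd1, cyclin D1 of the G1 phase, and Pde9a, a cyclic GMP phosphodiesterase. Pde9a was at 17.42, 19.27 and 19.14 TPM in XY E12.5 and 13.8, 10.6 and 11.59 TPM in XX E12.5, and at 4.69, 5.39 and 5.52 TPM in XY E13.5 and 13.94, 13.74 and 13.48 TPM in XX E13.5. The groups did not overlap at either stage. The difference went from -0.81 log2 (SE 0.13, edgeR adjusted p = 2.54e-05) to 1.55 (SE 0.14, adjusted p = 4.3e-09), with XY down by 1.94 log2. Ccnd1 went from 80.44, 85.64 and 70.98 TPM in XY E12.5 to 28.25, 24.73 and 25.44 TPM in XY E13.5, and XX libraries were at 48.5, 46.53 and 40.83 TPM and then 40.7, 34.4 and 36.45 TPM. Its difference went from -1.02 log2 (SE 0.15) to 0.6 (SE 0.15), the latter not called with limma-trend without a TPM filter (adjusted p = 0.0809). Sox5 went from -0.32 log2 (SE 0.12, adjusted p = 0.031) to 0.76 (SE 0.12, adjusted p = 1.7e-05), and its E12.5 call was lost on leaving out any of 9 of the 12 libraries (adjusted p up to 0.333). Of Sox5, libraries of the 2 sexes overlapped at E12.5. The change of the difference was 2.36 log2 for Pde9a, 1.63 for Ccnd1 and 1.08 for Sox5, all called. With limma-trend on TPM, neither stage of Sox5 nor its change was called.

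Immune-related genes numbered 7, with 5 higher in XX at E12.5, 4 at E13.5 and none higher in XY at either stage. Il13ra2 (chrX:147383476-147429192) was at 24.51, 22.07 and 18.1 TPM in XY E11.5 and at 0.36, 7.45 and 0.14 TPM in XX E11.5. The E12.5 libraries held 1.24, 1.09 and 1.75 TPM in XY and 10.53, 7.24 and 7.95 TPM in XX, and at E15.5 at 0.39, 0.34 and 0.43 TPM against 29.42, 32.54 and 31.39 TPM. The tested difference was 2.47 log2 (SE 0.64, edgeR adjusted p = 0.00218) at E12.5 and 3.48 (SE 0.65, adjusted p = 9.45e-05) at E13.5. Il33, an alarmin cytokine, was higher in XX by 2.09 log2 (SE 0.38) and 3.67 (SE 0.41). Traf3ip2, an adaptor of interleukin 17 signalling, was higher in XX by 1.31 log2 (SE 0.12) and 1.42 (SE 0.12). Cd1d2, annotated as a polymorphic pseudogene, is a close copy of Cd1d1, a lipid antigen-presenting molecule. It rose in both sexes, by 1.1 log2 in XX (adjusted p = 0.00481) and 1.59 in XY (adjusted p = 0.000763). Its XX excess at E12.5, 0.87 log2, was lost without XX E12.5 replicate 1 or XY E12.5 replicate 2 (adjusted p up to 0.117). Ifi27l2a, an interferon-induced gene, was not called at either stage, at -0.21 log2 (adjusted p = 0.517) and -0.39 (adjusted p = 0.242).

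Among the 5 long non-coding RNA members, 4 were higher in XX and Meg3 was higher in XY at both stages. The counting's use of strand is not given in the sources used here, so the antisense members Dnm3os and A630012P03Rik cannot be separated from reads of overlapping genes.

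The other tested members, 27 in all, comprised 12 higher in XX and 7 in XY at E12.5, and 16 and 3 at E13.5. Mest, an imprinted hydrolase-like gene, had the highest group mean of all members, at 1328, 1308.9 and 1131.7 TPM in XY E11.5 and 496.82, 529.27 and 624.96 TPM in XX E11.5. At E12.5 XY libraries were at 60.81, 60.31 and 60.83 TPM and XX at 967.68, 1059.2 and 743.65 TPM, a difference of 3.73 log2 (SE 0.16, edgeR adjusted p = 2.08e-14). The difference was 3.64 log2 at E13.5 (SE 0.16), and both sexes fell in between, XX by 0.53 log2 and XY by 0.44. Asb4, an ankyrin-repeat adaptor of ubiquitin ligases and also imprinted, went from 113.71, 168.75 and 202.6 TPM in XY E11.5 to 0.04, 0.23 and 0.07 TPM in XY E12.5, below XX at 10.95, 11.23 and 10.45 TPM. Its XX E11.5 libraries held 38.0, 13.29 and 113.96 TPM, so the groups overlapped at E11.5. Asb4 had the largest E12.5 difference of the members, 6.47 log2 (SE 0.73), and 6.44 (SE 0.74) at E13.5.

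Serpina3g, a serine protease inhibitor of a cluster of close copies, was called higher in XX at both stages. At E12.5 its XY libraries held 1 count in all against 55 in XX, a ratio of 50.9 (95% counting interval 9.13 to 2010), and at E13.5 XX libraries held 7.81, 7.8 and 8.8 TPM against 0, 0.12 and 0.19 TPM in XY. XX cells rose by 3.57 log2 (SE 0.41, edgeR adjusted p = 3.62e-06), the largest XX step among the members. Lhfpl2, a tetraspan membrane protein, was higher in XX by 2.85 log2 (SE 0.22) and 4.4 (SE 0.25), and Rbms3, an RNA-binding protein, by 3.0 (SE 0.26) and 3.59 (SE 0.27). Oit3, a secreted zona pellucida-domain protein, rose in both sexes, by 1.3 log2 in XX (SE 0.21) and 1.83 in XY (SE 0.28), and was higher in XX by 3.79 and 3.27 log2. Rab11fip4, a regulator of recycling endosomes, went from 0.2 log2 (adjusted p = 0.217) to 2.21 (SE 0.15, adjusted p = 2.9e-11), a change of 2.01 log2. Its E12.5 difference was called with only the 12 E12.5 and E13.5 libraries (adjusted p = 0.0277).

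M1ap kept the widest XY excess at both tested stages. It was at 14.23, 12.9 and 12.6 TPM in XY E12.5 and 1.16, 1.11 and 0.61 TPM in XX, and at 13.09, 12.95 and 12.92 TPM in XY E13.5 and 2.3, 2.52 and 2.35 TPM in XX. The difference was -3.98 log2 (SE 0.25, edgeR adjusted p = 1.5e-11) and then -2.35 (SE 0.23, adjusted p = 1.13e-08). XX cells rose by 1.61 log2 (SE 0.27, adjusted p = 0.000157), and the E15.5 libraries, which chose the gene, were at 40.02, 50.87 and 55.13 TPM in XX and 4.38, 4.87 and 5.05 TPM in XY. Germ cell markers in XX E15.5 libraries summed to 199.6 to 270.4 TPM, against 75.12 to 101.0 TPM in XX E13.5 and 74.54 to 130.1 TPM in XY E15.5 libraries, and their part in this meiosis gene's level was not tested. Sntb2, a syntrophin, differed by -0.21 log2 (adjusted p = 0.436) at E12.5 and by -1.72 (SE 0.24, adjusted p = 2.51e-06) at E13.5, after XX cells fell by 1.23 log2. Arhgap20, a GTPase-activating protein, was higher in XX by 2.74 log2 (SE 0.27) at E12.5 and by 0.69 (SE 0.27, adjusted p = 0.0298) at E13.5, a call lost without XX E13.5 replicate 3, XY E13.5 replicate 1 or XY E13.5 replicate 3 (adjusted p up to 0.0964), and with limma-trend on TPM in all 3 settings (0.41 to 0.65 log2, adjusted p up to 0.235). The last members by rank, Arhgap36, Chst4 and Dlc1, differed at E12.5 by 0.03 (adjusted p = 0.943), 1.73 (SE 0.2) and 2.21 log2 (SE 0.28), and at E13.5 by 1.99 (SE 0.33), 0.4 (adjusted p = 0.0958) and 2.96 log2 (SE 0.3). Chst4 was called higher in XX at E13.5 with limma-trend in all 3 settings (adjusted p = 0.0231, 0.0474 and 0.0379) and with only the 12 E12.5 and E13.5 libraries (0.0163).

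XX E11.5 libraries differed among themselves more than later XX libraries in many members. Of the 90 tested members, the highest XX E11.5 library was replicate 3 for 49, replicate 2 for 25 and replicate 1 for 16. In XY E11.5, replicate 3 was the highest for 47, and 37 members had replicate 3 as the highest in both sexes, among them Dcn, Sfrp1, Sfrp2, Ptn, Cdh11 and Asb4. The matching shares over all genes were not computed, so these counts are not read as particular to the members. Replicate 2 was the highest XX E11.5 library for Il13ra2, Hsd3b1, Acsm3, Lgr5 and Hs3st1. The 15 stromal markers, of which Dcn and Pdgfra are members, summed to 238.6 to 1254 TPM in XX E11.5 and 551.8 to 956.2 TPM in XY E11.5, and to 180 to 308 TPM in XX E12.5 against 46.3 to 54.98 TPM in XY E12.5. Of these 15, 13 were higher in XX and 1 in XY at E12.5, and 11 and 1 at E13.5. The part of stromal RNA in the members' values was not tested. Membership depended on these libraries: 79 of the 100 genes were kept without XX E11.5 replicate 3, 80 without replicate 2, 84 without replicate 1, and 83 without XY E11.5 replicate 3. A total of 47 members, none of them a small RNA, were kept whichever 1 of the 12 E11.5 and E15.5 libraries was left out.

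At the level of pathways and markers, members stood in 8 of the 18 lists read here. Of all genes tested, 30.5% were higher in XX and 31.5% in XY at E12.5, and 32.8% and 33.3% at E13.5, and several of the counts below lie near these shares. Of 40 WNT and R-spondin genes tested, which hold Lgr5, Sfrp1 and Sfrp2, 26 were higher in XX and 11 in XY at E12.5, and 24 and 10 at E13.5, with a median of 1.88 and 1.42 log2. Of 40 FGF and receptor tyrosine kinase genes, which hold Pdgfra, 14 were higher in XX and 19 in XY at E12.5, and 13 and 15 at E13.5. Of 41 axon guidance genes, which hold Sema6a and Epha7, the calls were 20 in XX and 11 in XY, and then 18 and 13. Of 37 cadherin, claudin and junction genes, which hold Cdh11, 8 and 17 were called, and then 7 and 16. Of 30 interferon and class I presentation genes, which hold Ifi27l2a, 22 and 4 were called, and then 21 and 3, so that this member was not called in a list mostly higher in XX. The pathway lists without a member were Notch signalling (23 tested, 8 and 11, then 6 and 8), TGF-beta and BMP signalling (40 tested, 16 and 11, then 13 and 12) and retinoid metabolism (16 tested, 10 and 5, then 9 and 4). The lists are not complete, and the TGF-beta and BMP list leaves out Smad1, which is a member. Smad1 was not called at E12.5 (0.13 log2, edgeR adjusted p = 0.555) and was higher in XX at E13.5 (0.53 log2, adjusted p = 0.0116). The interferon list leaves out Gbp6, a member of the immune-related group. Gbp6 was higher in XX at E12.5 (3.94 log2, edgeR adjusted p = 2.99e-07) and at E13.5 (2.89 log2, adjusted p = 5.78e-06). The surface epithelium list, which holds Lgr5, had 8 of 12 higher in XX and 2 in XY at E12.5, and 10 and 1 at E13.5.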

How the data were processed

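RNA was read in 24 libraries of sorted fetal gonad cells, 3 for each sex and stage. The authors deposited estimated counts per gene, which need not be whole, and TPM values, both unlogged, per the file headers. The genome build mm10 is given in the submitters' processing notes, and the aligner, the counting program and its use of strand are not given in the sources used here. The 100 members were chosen on TPM by their means at E11.5 and E15.5. The members, gene lists and tests were chosen with earlier results of these data known.

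Estimated counts were rounded to whole numbers and fitted with edgeR 4.0.16 (R 4.3.3; TMM scaling, filterByExpr, robust quasi-likelihood fit of 8 group means over all 24 libraries), with Benjamini-Hochberg adjustment over 16190 genes and a threshold of 0.05. The contrasts were the XX minus XY difference of each tested stage, the step between these stages in each sex, and the change of the difference. Fold changes are log2 values of this fit, and the standard error is the absolute log2 value over the square root of F. The fitting code was tried on simulated counts with the same spread for every gene. Only the XX minus XY differences were scored there, not the step in each sex or the change of the difference. Counting intervals and floors cover counting error only. Same-numbered libraries of the E12.5 and E13.5 groups did not deviate together over the genes tested (correlations of -0.0783 to 0.0627), so they were not treated as pairs. The E11.5 and E15.5 groups were not checked in this way. DESeq2 1.42.0, limma 3.58.1 on log2(TPM + pseudocount), other filters, only the 12 E12.5 and E13.5 libraries and leaving out each library in turn were alternatives.

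Genes were named by a rule: the first 12 members, the 5 largest called differences per direction and stage, the 3 largest called steps per direction and sex, members in the gene lists, and the 3 members and 3 genes at the edge of the rule. Results of some genes that this rule names are not reported here. Genes named after their values were seen are identified as such. Gene positions are from GENCODE M21, and promoters from RefSeq (GRCm38.p6), the first listed for each symbol.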

Additional observations from a re-analysis of the deposited data

Results flagged for a closer look

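The XX minus XY difference itself changed between E12.5 and E13.5, by a test of the interaction of sex and stage (edgeR quasi-likelihood, Benjamini-Hochberg), for 26 members towards XX and 5 members towards XY. Towards XX it moved by 3.66 log2 in Paqr5, 3.37 in Ces1h, 2.51 in Rnase1, 2.36 in Pde9a, 2.34 in Kcnk2, 2.33 in Lrp4, 2.01 in Rab11fip4, 1.98 in Pdgfra, 1.9 in Osr2, 1.64 in M1ap, 1.63 in Ccnd1, 1.55 in Lgr5 and 1.08 in Sox5. The genes listed towards XX are a part of the 26. Towards XY the difference moved by -2.22 log2 in Hoxd4, -2.05 in Arhgap20, -1.51 in Sntb2, -1.33 in Chst4 and -0.7 in Epha7. The value of Ces1h was not called without XY E12.5 replicate 2 or XY E13.5 replicate 3, with adjusted p up to 0.0892, nor with limma-trend on TPM, with adjusted p up to 0.526, where it was 0.72 on log2(TPM + 0.1) (0.189) and below 0 on log2(TPM + 1). That of Epha7 was -0.43 and not called without XX E12.5 replicate 3 (0.0825). Those of Lgr5 and Pdgfra were not called under 2 of the 3 limma-trend settings, and that of Sox5 under all 3.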

How the results depend on the processing

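Of the counts, medians and membership values, 273 of the recomputed values kept their direction and stayed close to the reported one, and 34 moved. For counts and membership, close means within a ratio of 1.5, so that 70 members kept of 100 passes as close. Among single genes, 2505 kept direction and call, 91 lost a call, 11 gained one and 33 changed sign. With at least 10 counts in every E12.5 and E13.5 library, 68 members were tested, the E12.5 count in XX was 28, and the medians of the earlier and later stage were 0.21 and 0.79. They were 0.68 and 1.21 with a filter of 1 count, 0.73 and 1.29 with DESeq2, and 0.68 and 0.77, 0.98 and 1.13, and 0.66 and 0.74 with limma-trend on log2(TPM + 1), on log2(TPM + 0.1) and without a TPM filter. limma on TPM + 1 moved the median of all genes at E12.5 to 0.14, from -0.01. A log2 difference of at least 1 left 14 members in XY at E12.5, 2 in XY at E13.5, and 9 rising and 6 falling in XX. Without a TPM filter, limma called 10 rising in XX and 14 moving towards XX. With only 12 libraries, 30 rose in XX and 6 in XY. In alternatives added after the data were seen, members chosen again without XX E11.5 replicate 2 gave 6 rising in XY and 2 moving towards XY, and without XY E11.5 replicate 3 they gave 3 moving towards XY. The rule on TPM + 0.1 kept 53 of the 100 members. The cause of these shifts was not tested.

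Leaving out 1 library at a time gave 46 to 49 members in XX and 18 to 22 in XY at E12.5. At the later stage it gave 56 to 60 and 6 to 10. It gave 16 to 19 rising and 7 to 13 falling in XX, 2 to 3 rising and 18 to 27 falling in XY, and 22 to 26 and 4 to 5 moving towards XX and XY. The medians ran from 0.87 to 1.07 and from 1.42 to 1.57, and membership from 79 to 98. A replicate block gave 48 and 22 calls at the earlier stage, 58 and 11 at the later, 18 and 12 for the XX step, 2 and 27 for the XY step and 26 and 5 for the change.

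Signs changed in values near 0 and in 1 called value, that of Ces1h, whose change of the difference was -0.29 with limma on log2(TPM + 1), with and without a TPM filter. At E12.5, Slc16a4 turned to 0.06, 0.07 and 0.06 with the 3 limma settings and Sntb2 to 0.17 in all 3, and Arhgap36 to -0.04, -0.06 and -0.04. With a library left out, Slc16a4 ran from -0.15 to 0.01, Sntb2 from -0.3 to 0.05, Arhgap36 from -0.35 to 0.36, Acsm3 from -0.02 to 0.4, and Ifi27l2a from -0.39 to 0.04. At E13.5, Paqr5 turned to 0.03 with DESeq2 or its size factors, 0.04 with at least 10 counts, and 0.14, 0.18 and 0.14 with limma, and Sema6a to -0.09, -0.1 and -0.09 with limma. With a library left out, Paqr5 ran from -0.04 to 0.11 and Sema6a from -0.02 to 0.12. Depth limits the 10 small RNA members, which never exceeded 13 counts in any library. It also limits Serpina3g at E12.5, with 1 count over the XY libraries, and Cga and Ces1h at E13.5, with 0 and 1.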
